A study of Setaria viridis with 40 samples.

Results

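A set of 55 genes of *Setaria viridis*, a C4 grass used as a model, was lowered by high light at every sampled time and did not move far with heat. The members were selected on the TPM values of the light and heat libraries themselves. A gene was taken when its mean TPM in high light, against the control of the same time, gave log2((treated + 1)/(control + 1)) of -1.5 or below at 1, 2 and 4 h. Its heat effect on the same scale had to stay under 1 in size at all 3 times, and its mean TPM had to be at least 5 in each of the 3 later controls. Of 38239 genes in the files, 8293 reached that control level. Of these, 78 were lowered that far by light, and 18 of them were left out because their heat effect was 1 or more in size at some time. A further 5 belong to pathway lists that the study had drawn up and were also left out. They are Sevir.3G200700, a β subunit of the energy-sensing kinase SnRK1 (light effects -5.26, -5.89 and -3.45), Sevir.5G321600, a class II trehalose-6-phosphate synthase, and the glutaredoxin genes Sevir.5G167100, Sevir.5G167300 and Sevir.5G372700. The light and heat effects below therefore describe the choice and carry no test.

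Leaf segments of strain ME034 were taken mid-blade from a fully expanded true leaf after 13 days of growth. Plants of the control groups stayed at 31 °C and 250 µmol photons m-2 s-1 and were sampled before treatment (ctrl_0h) and after 1, 2 and 4 h (ctrl_1h, ctrl_2h and ctrl_4h). High light (HL) was 900 µmol photons m-2 s-1 at 31 °C, and high temperature (HT) was 40 °C at 250 µmol photons m-2 s-1, each in a chamber of its own and each sampled at 1, 2 and 4 h. Each of the 10 groups had 4 replicates, A to D, and each replicate pooled leaf segments from a pair of plants. TPM is here a gene's share of the estimated reads of a library, scaled so that each library has the same total, from 3′-end libraries in which no gene length enters. HL and HT were read against the same control libraries, and treatment cannot be told apart from chamber.

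Plants read light through several kinds of photoreceptor. Phototropins are blue-light receptor kinases, known in Arabidopsis for phototropism, chloroplast movement and stomatal opening, and phytochromes are red and far-red receptors that remove transcription factors called PIFs. Light also sets the sugar supply of the leaf. In Arabidopsis, genes named for dormancy and darkness, and autophagy, the recycling of cell contents in the vacuole, respond to low sugar.

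As a check of the tissue, defining transcripts of a C4 leaf were abundant in every library: Sevir.3G253900, a gene of pyruvate phosphate dikinase, was at 5816 TPM or more, and Sevir.5G132500, of NADP-malic enzyme, at 1845 or more. Total counts lay between 1422507 and 4901131 in the 39 count columns used. Between the scales used here, the median effect of all tested genes at HL_4h was 0.33 (log2) in TPM and 0.05 after division by TMM factors, a shift that applies to every HL_4h value given in TPM. All 55 members passed the filter on low counts, so none was lost before the tests. Of the 55, 43 had a gene description and 12 had none. They lay on all 9 chromosomes, with 3 on chromosome 8 and 10 on chromosome 9, and no 2 members lay within 10 places of each other in the order of gene IDs.

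The members stood below the control of the same time at 1, 2 and 4 h, as the rule requires. Their median light effect was -2.28 at HL_1h, -2.62 at HL_2h and -1.96 at HL_4h, beside -0.003, 0.11 and 0.33 over all tested genes. After division by TMM factors the HL_4h median was -2.38. Mean TPM stood higher at HL_4h than at HL_2h in 43 members, and no share of all tested genes is given for this. The largest effect came at 2 h in 34 members, at 1 h in 16 and at 4 h in 5. Those 5 were Sevir.1G200000, Sevir.1G373000, Sevir.3G123900, Sevir.4G238100 and Sevir.5G112300. All 55, chosen on these contrasts, were called lower in edgeR at each time, where 9.08%, 13.9% and 12.6% of all tested genes were called lower at HL_1h, HL_2h and HL_4h.

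**Figure D1:**
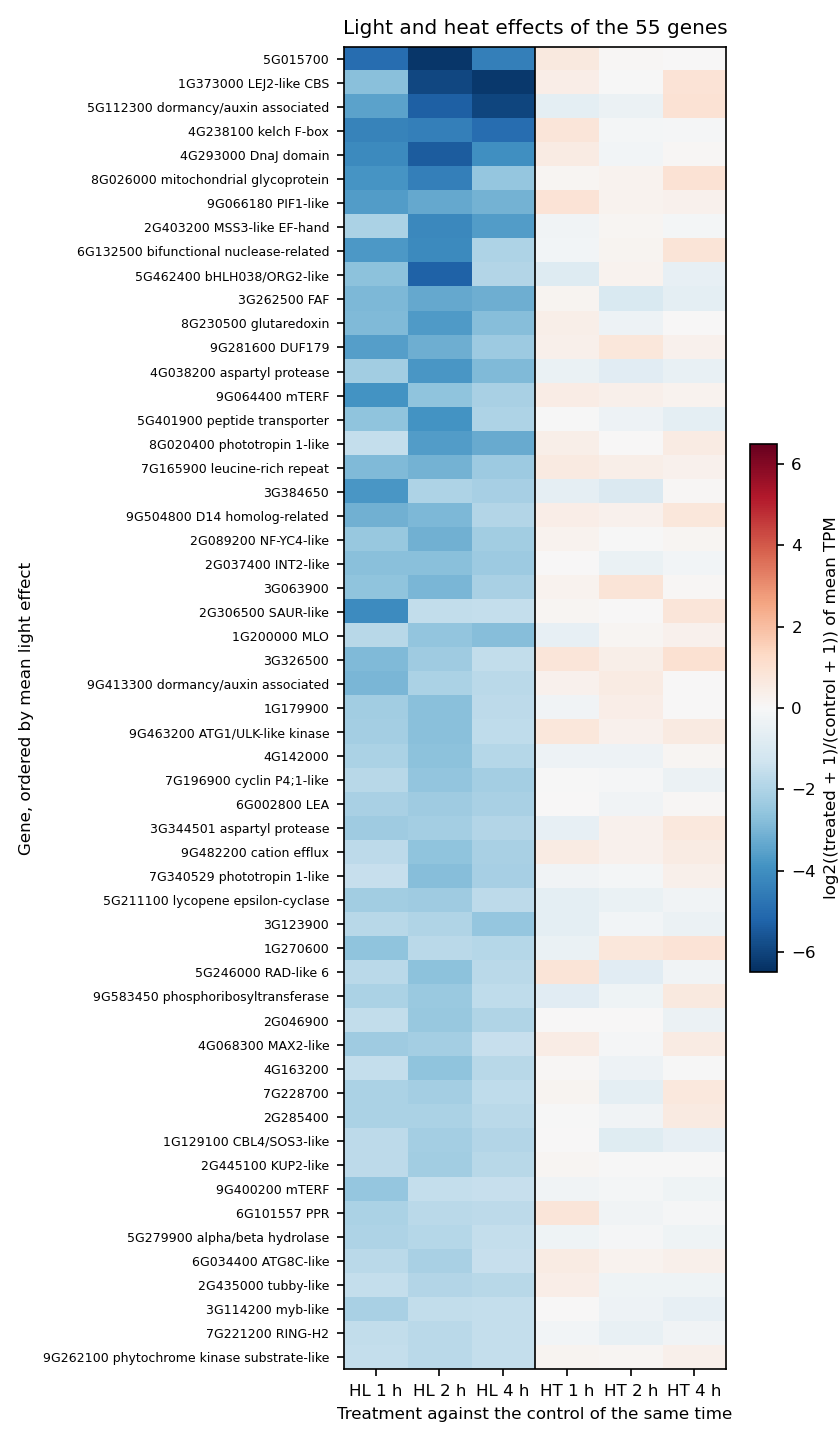
Light (HL) and heat (HT) effects of the 55 genes against the control of the same time, as log2((treated + 1)/(control + 1)) of mean TPM (n = 4 libraries a group), one row a gene, ordered by mean light effect. Light effects run from -6.30 to -1.504 by the choice of genes, and heat effects lie between -0.97 and 0.98.

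Single libraries gave the same picture. The mean level of the 55 genes, as log2(TPM + 1) centred on each gene's mean over 40 libraries, was -2.07 ± 0.14 at HL_1h, -1.96 ± 0.10 at HL_2h and -1.48 ± 0.33 at HL_4h (SD, n = 4). In the control groups it was 0.61 ± 0.13, 0.46 ± 0.26, 0.97 ± 0.15 and 0.91 ± 0.15 at 0, 1, 2 and 4 h. No HL library reached a control library: the highest HL value was -0.998, in HL_4h replicate B, and the lowest control value was 0.17, in ctrl_1h replicate A. In bulk tissue, fewer cells of a type and less RNA per cell cannot be told apart.

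**Figure D2:**
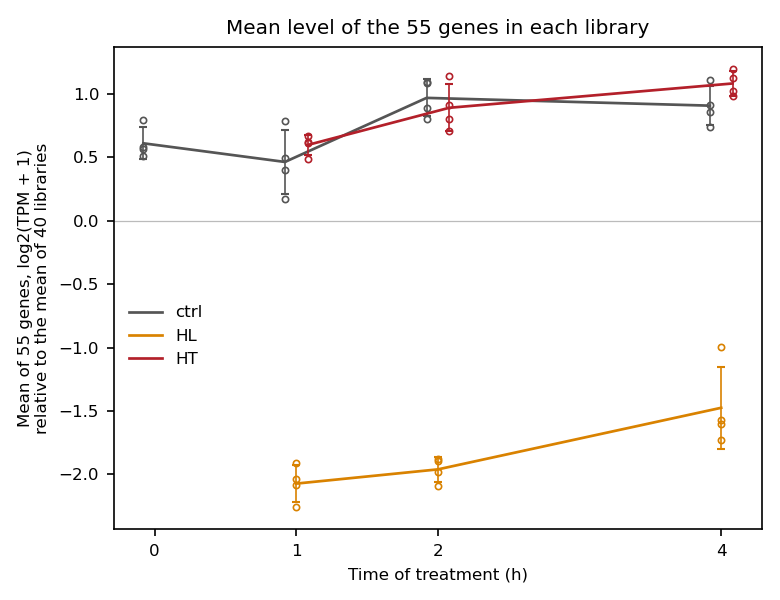
Mean level of the 55 genes in each of the 40 libraries (open circles) against time, as log2(TPM + 1) relative to each gene's mean over all libraries, with group means joined by lines and SD bars (n = 4). The 12 HL libraries lie between -2.26 and -0.998, and the 28 control and HT libraries between 0.17 and 1.20.

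HL_4h replicate B stood apart. In TPM it held the highest of the 4 HL_4h values in 35 of the 55 members (63.6%), beside 46.8% of all tested genes. Its TMM factor was 1.47 and those of the other 3 were 1.14 to 1.24, so its TPM values stood high for genes in general. After division by these factors it was highest in 26 members (47.3%), beside 25.7% of all tested genes. The mean level of the set, as centred log2(TPM + 1), was -0.998 there against -1.73 to -1.57 in the other 3 libraries. Without it the median light effect at 4 h was -2.16. Its part in the smaller HL_4h effect beside HL_2h was not tested.

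All 4 HL libraries lay below all 4 control libraries of the same time in 55, 55 and 53 members at 1, 2 and 4 h, and at all 3 times in 53. Over all tested genes the shares were 7.92%, 11.6% and 6.23%, and 2.32% at all 3 times. The exceptions at 4 h were Sevir.1G270600, which has no description, and Sevir.5G462400. The rule did not use ctrl_0h. All 4 HL libraries lay below all 4 ctrl_0h libraries in 49, 51 and 44 members (13.5%, 11.4% and 9.24% of all tested genes), and at all 3 times in 43 (4.64%). The median level against ctrl_0h was -2.57, -2.54 and -2.01 (log2) at HL_1h, HL_2h and HL_4h. The mean lay above that of ctrl_0h in 0, 1 and 4 members, so not every member stayed below its starting level. At HL_4h these were Sevir.2G435000 (1.51), Sevir.3G123900 (0.343), Sevir.5G462400 (0.125) and Sevir.5G401900 (0.069). The HL libraries were used by the rule, so these are descriptions too.

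Several described members are light receptors or their partners. Sevir.8G020400 and Sevir.7G340529 both have phototropin 1 as their closest Arabidopsis gene. They share that description, so reads from a common stretch could have been divided between them by the authors' estimate. Here and below, 4 values joined by slashes are the TPM of replicates A, B, C and D, and 3 values or sets in a row are for 1, 2 and 4 h. Sevir.8G020400 had 69.8/70.2/91.9/58.2 at ctrl_1h, 98.3/101/118/119 at ctrl_2h and 94.1/90.0/92.7/83.7 at ctrl_4h. In high light it had 34.4/25.3/23.3/13.5 at 1 h, 6.32/9.26/7.65/8.92 at 2 h and 5.81/9.34/9.59/9.26 at 4 h. Every HL library lay below every control library, and the 2 h and 4 h libraries lay below those of 1 h. The effects were -1.55, -3.61 and -3.26 at 1, 2 and 4 h, while HT libraries ran from 82.3 to 104 at 1 h to 122 to 137 at 4 h.

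Sevir.7G340529 also fell further after 1 h. Its control libraries ran from 31.3 to 42.9 at 1 h, 38.4 to 43.6 at 2 h and 31.1 to 39.8 at 4 h. Its HL libraries ran from 8.52 to 15.7, 2.97 to 6.62 and 2.78 to 9.61. The effects were -1.504, -2.75 and -2.14, and the 1 h value is the member value nearest to the light threshold. Sevir.9G262100, related to the phytochrome kinase substrates, which act with phototropins in Arabidopsis, had the weakest mean light effect of the set. Its control means were 19.5 ± 4.37, 21.8 ± 6.39 and 16.3 ± 1.17 TPM (SD, n = 4), and its HL means were 5.96 ± 0.769, 5.87 ± 0.982 and 5.01 ± 0.669. The HL libraries were narrow, and none overlapped a control library.

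Sevir.9G066180 is closest to Arabidopsis PIF1, a PIF that holds back germination and greening in the dark there. At ctrl_1h, ctrl_2h and ctrl_4h its libraries A to D had 38.8/35.9/37.4/22.7, then 54.3/66.9/86.5/59.4, then 97.3/70.6/86.2/59.1 TPM. Under high light they had 4.29/0.775/1.01/1.29, then 6.34/4.14/6.80/5.45, then 5.69/10.6/8.71/9.03. No HL library came within reach of a control library, and HL_1h replicate A was the highest of its group. The effects were -3.61, -3.34 and -3.06. Under heat its TPM was 67.8/57.1/77.5/54.2 at HT_1h, above every ctrl_1h library, which gave a heat effect of 0.91, close to the limit of 1.

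The wider list of photoreceptors and phototropism genes (16 tested genes by keyword) had 8 called lower at each time, and 3, 4 and 1 called higher. Besides the 3 members it holds 2 genes like Arabidopsis RPT2, an NPH3-family partner of phototropin. Sevir.8G010800 had effects of -2.23, -2.06 and -1.48, just outside the rule at 4 h, and Sevir.7G314000 had -2.97, -1.96 and -0.97. Sevir.4G156300, closest to cryptochrome 3, went the other way with 1.07, 0.776 and 0.615. The phytochrome list (11 tested genes, of which 2 are fatty acid reductases that the keyword FAR1 also took in) had 4, 6 and 5 lower and 3 higher at each time. A second gene closest to PIF1, Sevir.3G401300, had -1.20, -1.01 and -0.99. Genes closest to HY5 went the other way: Sevir.1G043300 had 2.12, 2.12 and 2.48, and Sevir.5G119500 had 0.98, 1.18 and 0.996. Descriptions were at hand mostly for genes that the study had called changed. Of 2804 tested genes with one, 25.6%, 32.2% and 30.8% were called lower, so list counts are not independent evidence. Their share called higher is not given.

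Some lists held no member. The list meant for SnRK1 subunits, their partners and class II trehalose-6-phosphate synthases had 26 tested genes. Its keywords also took in CIPK kinases, which are on the CBL and CIPK list below as well. They further took in an SnRK2 kinase and haloacid dehalogenase-like hydrolase genes, such as one closest to TPPA. Of the 26, 14, 15 and 15 were called lower and 3, 4 and 4 higher, so these are not counts for SnRK1 alone. In all, 9 of the 26 belong to the pathway lists that were left out of the choice. The B-box and CONSTANS-like list (11 tested) had 7, 8 and 9 lower and 3, 1 and 1 higher. Of 5 chlorophyll synthesis genes found by keyword, 3, 3 and 4 were lower and 0 higher. The clock list held only 2 tested genes, both called lower at each time. Of 11 aquaporin genes found by keyword, 3, 4 and 3 were lower and 2 higher at each time. Tested genes without a matching description are missing from these lists, so they do not cover all genes of a kind.

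The lists of dormancy, darkness or senescence and of autophagy held 4 members. Sevir.5G112300 and Sevir.9G413300 belong to the dormancy/auxin associated family, whose Arabidopsis members are known as dormancy markers. In 5G112300, control TPM in A to D was 13.2/25.0/33.7/37.0 at 1 h, 46.3/55.2/82.1/52.1 at 2 h and 95.1/112/265/144 at 4 h. In HL it was 1.34/2.07/1.27/1.62, 1.02/0/0/0.991 and 0.898/2.71/0.746/1.504. The gene climbed in the control leaves and stayed at 2.71 TPM or below in high light, which gave effects of -3.46, -5.32 and -5.98. HT libraries climbed as well, to 306/421/218/248 at HT_4h.

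Sevir.9G413300 had its largest drop at 1 h. Its control values were 149/294/346/449.9 at 1 h, 344/283/307/323 at 2 h and 367/401/359/321 at 4 h, beside 24.4/49.1/35.2/46.9, 85.5/58.6/71.6/87.9 and 71.9/156/108/85.1 in HL. The groups did not overlap at any time, and ctrl_1h replicate A was the low control library at 1 h. Effects were -2.96, -2.04 and -1.77. The keyword list for dormancy, darkness and senescence (15 tested) had 9, 12 and 11 called lower and 1, 1 and 2 higher. Many of its genes are described by senescence only, such as those closest to SAG12 and SAG21, so these are not counts for dormancy or darkness alone. Another family member, Sevir.6G176400, had -2.04, -2.45 and -0.79. Sevir.7G333200, closest to AILP1, had -1.28, -2.10 and -1.67, outside the rule at 1 h.

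ATG8 proteins coat the autophagosome membrane, and the ATG1 kinase starts the process. Sevir.6G034400, closest to ATG8C, had control TPM of 109.8/123/169.6/130.2 at 1 h, 151/155/182/180.0 at 2 h and 171/131/175/148 at 4 h. Its HL libraries had 50.9/30.2/37.9/38.1, 52.0/35.5/28.4/34.7 and 35.9/94.5/41.0/45.4. All lay below the controls, HL_4h replicate B by the smallest margin, and effects were -1.74, -2.12 and -1.51. A second gene closest to ATG8C, Sevir.7G255300, had -0.81, -0.97 and -0.53, and the estimate may have divided shared reads between the pair.

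Sevir.9G463200, an ATG1/ULK-like kinase, ran from 11.2 to 21.6 at ctrl_1h, 22.5 to 29.7 at ctrl_2h and 11.8 to 21.8 at ctrl_4h. Its HL libraries ran from 2.28 to 2.91, 0.991 to 6.57 and 2.70 to 6.496, and effects were -2.19, -2.73 and -1.66. Of 7 tested genes on the autophagy list, 4, 5 and 5 were called lower and 0, 1 and 0 higher. The gene called higher at 2 h was Sevir.3G285100, a peptidase-family gene that the keyword took in through the synonym ATG2.

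**Figure D3:**
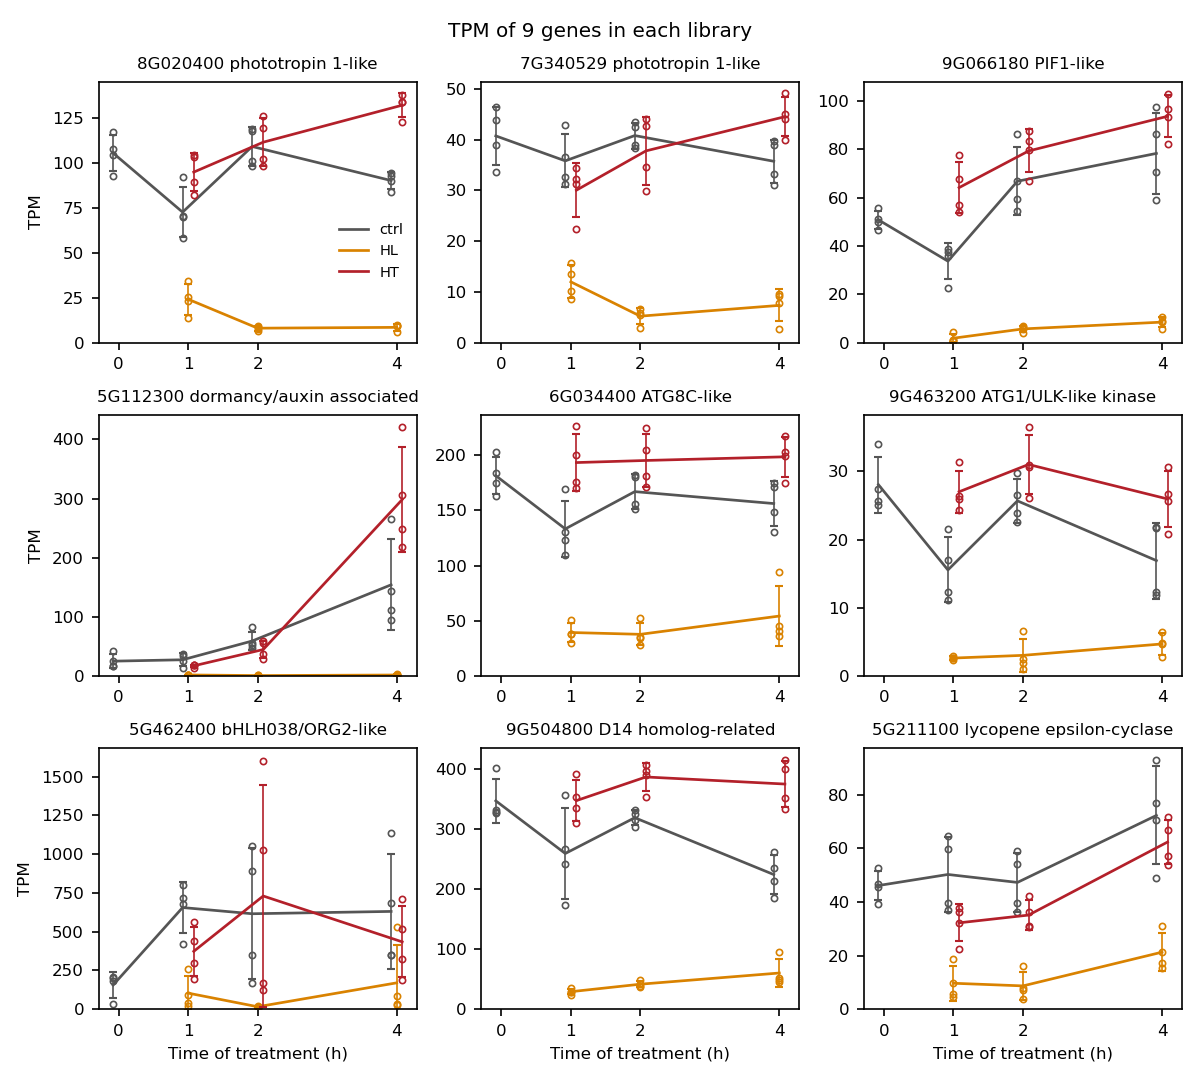
TPM of 9 members against time in every library (open circles), with group means joined by lines and SD bars (n = 4); grey is control, orange is HL and red is HT, and each panel has its own axis from 0. HL circles lie under the control circles of the same time in every panel but that of 5G462400 at 4 h, where 1 HL library stands at 532 TPM.

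Sevir.5G462400 is closest to Arabidopsis bHLH038, one of the transcription factors that rise in iron deficiency, and it spread widely between replicates. Its control libraries had 423/718/804/678 TPM at 1 h, 1053/167/352/891 at 2 h and 349/687/350.3/1137 at 4 h. In HL they had 17.7/260.1/93.1/41.4, 15.7/13.4/8.98/22.3 and 87.1/532/34.8/23.8. HL and control were far apart at 2 h and overlapped at 4 h, where replicate B was the high library. The HT libraries spread as widely, with 171/1602/122/1026 at HT_2h. Effects were -2.66, -5.26 and -1.89.

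Other iron genes stood beside it. The iron list (9 tested genes) had 7 called lower and 1 higher at each time, although the keywords also took in a gene closest to EIN2, of ethylene signalling, and BYSL, a ribosome assembly gene. Sevir.9G389000, closest to the iron regulator PYE, had -2.79, -3.04 and -1.18. The 2 genes closest to BRUTUS, a ubiquitin ligase of iron sensing, were Sevir.3G159900 with -1.49, -2.83 and -0.89, and Sevir.5G279700 with -1.38, -2.37 and -0.95. None of these 3 met the rule at every time.

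Sevir.8G230500 codes for a glutaredoxin of the plant-specific CC group, named OsGrx_C17 in rice; glutaredoxins are small redox enzymes that use glutathione. Control TPM in A to D was 3.58/3.24/14.4/15.4, 12.8/12.2/13.3/14.7 and 3.15/6.77/7.58/11.6 at 1, 2 and 4 h. The HL libraries held 0.268/0.516/0.506/0.323, 0.507/0/0/0 and 0/0.271/0/0.602. Nearly all HL libraries were at or near 0, and ctrl_1h was split, with A and B low. Effects were -2.85, -3.66 and -2.77 on the pseudocount scale. At 2 h, 2 counts in the HL columns stood against 196 in the controls, a ratio of 107 between their shares of reads with a 95% counting interval of 29.2 to 890.0. Of 9 tested genes on the glutaredoxin list, 8 were called lower at each time and 0, 1 and 1 higher, and 6 belong to the study's own pathway lists. The gene called higher at 2 h and 4 h was Sevir.1G339400, with effects of 0.18, 0.91 and 1.26.

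Strigolactones are carotenoid-derived hormones, perceived by the hydrolase D14 together with the F-box protein MAX2. Sevir.9G504800, described as related to a D14 homolog, had control TPM of 173/241/357/267 at 1 h, 303/325/316/332 at 2 h and 186/235/263/214 at 4 h. In HL it had 34.8/28.4/28.6/24.2, 37.5/41.6/37.9/49.1 and 45.8/94.7/52.0/48.1, all well under the controls, with replicate B the highest at 4 h. Effects were -3.12, -2.91 and -1.88, and HT libraries, at 333 to 416 at HT_4h, lay above all 4 ctrl_4h libraries. Whether it acts on strigolactones is not given by its description.

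Sevir.4G068300, closest to MAX2, had control libraries from 3.85 to 11.5, 9.52 to 15.8 and 5.02 to 13.5 TPM. Its HL libraries ran from 0.253 to 0.969, 0.971 to 3.72 and 1.504 to 3.52, and effects were -2.29, -2.19 and -1.52. All 4 tested genes on the strigolactone list were called lower at 2 h, 2 at 1 h and 3 at 4 h, and 0 higher. The 2 that are not members are Sevir.8G105100, closest to the synthesis enzyme CCD8, with -1.41, -2.16 and -1.36, and Sevir.1G035600, closest to MAX1, with -0.39, -0.88 and -0.07.

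Sevir.2G306500 codes for a SAUR-like protein, a family of early auxin response genes. It had 127/96.8/96.8/67.4 TPM at ctrl_1h, 77.6/105/79.2/92.5 at ctrl_2h and 29.2/40.6/58.3/48.2 at ctrl_4h. HL libraries had 2.68/5.94/7.08/3.55 at 1 h, 35.5/27.01/29.6/21.1 at 2 h and 20.1/10.6/13.9/14.1 at 4 h. The drop was deepest at 1 h, and effects were -4.07, -1.61 and -1.52. The auxin list (19 tested) had 8 called lower at each time and 4, 3 and 1 higher.

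Sevir.5G211100 codes for lycopene epsilon-cyclase, which leads carotenoid synthesis towards lutein. Its control libraries had 36.9/59.7/39.7/64.7, 36.3/59.1/54.1/39.6 and 48.8/76.9/93.0/70.6 TPM at 1, 2 and 4 h. Its HL libraries had 18.8/5.68/9.61/4.52, 7.10/7.79/3.64/16.1 and 31.1/17.3/15.2/21.4. HL lay below control at each time, and replicate A was the high HL library at 1 h and 4 h. Effects were -2.27, -2.32 and -1.72. On the carotenoid list (11 tested, some of them unrelated genes taken in by keyword), 2, 3 and 3 were called lower and 5, 5 and 6 higher. Sevir.1G054400, the lycopene beta-cyclase on the other branch, had 1.17, 1.12 and 1.90, and Sevir.7G220800, a beta-carotene hydroxylase, had 2.20, 2.71 and 2.35. Both are on the study's pathway lists. Sevir.9G339800, a carotene epsilon-monooxygenase gene closest to LUT1, had effects of 0.303, 0.705 and 1.08. The light effects of the epsilon-cyclase gene and this epsilon-monooxygenase gene thus had opposite signs. The epsilon-monooxygenase gene averaged only 8.735 TPM in the later controls. Its heat effect at HT_4h was 1.229, and the median light effect of all tested genes at HL_4h was 0.33. The paper reports that lutein itself was raised in leaves at the end of the high light treatment. A shift between the branches was not tested.

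Some members are described as calcium sensors or as transporters. Sevir.1G129100, closest to CBL4 (SOS3), which binds CIPK kinases in the salt response of Arabidopsis, had control values of 24.8/28.8/27.4/37.7, 26.0/37.3/33.8/27.7 and 22.7/36.5/35.8/28.1 TPM at 1, 2 and 4 h. In HL it had 10.2/8.01/10.6/5.17, 4.31/6.81/4.85/8.18 and 5.39/10.015/6.96/7.22, without overlap, and effects of -1.69, -2.20 and -1.92. Of 9 tested genes on the CBL and CIPK list, 6 were called lower and 0 higher at each time. Sevir.9G415800, closest to CIPK10, had -1.59, -2.61 and -2.69. It met the light and heat limits and is on no pathway list, so it fell short of the control level at some time. Other genes closest to CIPK10 were Sevir.1G077900 with 0.27, -0.275 and -0.44, and Sevir.7G311940 with -1.53, -0.03 and 0.17.

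Sevir.2G403200, an EF-hand calcium-binding gene closest to MSS3, had 22.0/16.2/33.7/38.9, 12.0/19.2/37.3/36.5 and 11.2/40.6/58.8/40.2 in the controls. In HL it had 10.5/7.49/4.55/0.646, 0/0.487/0.485/0.991 and 2.10/2.98/2.99/0.301. HL_1h spread widely and HL_2h was near 0 throughout, with effects of -2.08, -4.19 and -3.65. Sevir.2G037400, closest to the inositol transporter INT2, had 9.08/14.1/19.0/8.86, 18.3/11.7/17.4/21.2 and 19.3/21.3/13.6/16.2 in the controls. Its HL values were 1.61/1.03/0.759/0.969, 2.54/1.95/1.94/0.743 and 0.898/5.68/2.24/1.81, all below the controls, and effects were -2.72, -2.70 and -2.35. It is the only member on the list of sugar and polyol transporters (10 tested), of which 4, 5 and 5 were called lower and 0, 1 and 3 higher, with median effects of -0.42, -0.13 and -0.15.

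Other transport genes are Sevir.2G445100, closest to the potassium transporter KUP2 (-1.69, -2.28 and -1.79), the peptide transporter gene Sevir.5G401900 (-2.60, -3.89 and -2.02) and Sevir.9G482200, a cation efflux gene (-1.68, -2.61 and -2.12). These values are light effects at 1, 2 and 4 h.

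Of the 10 members with the deepest mean light effect, 4 are described above: the dormancy-family gene 5G112300, the PIF1-like gene, the EF-hand gene 2G403200 and the bHLH038-like gene 5G462400. The other 6 follow. Sevir.5G015700, which has no description, had control TPM of 36.6/67.9/149/92.5 at 1 h, 183/214/242/217 at 2 h and 156/169.6/213/151 at 4 h. Its HL libraries held 2.95/0.775/2.53/0.969, 2.03/2.43/1.70/0.743 and 3.59/14.6/4.97/4.51. Its effects, -4.96, -6.30 and -4.45, gave the largest mean effect of the 55, and replicate B was again the high HL_4h library.

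Sevir.1G373000, closest to LEJ2, a CBS-domain protein that Arabidopsis uses to regulate thioredoxins, had 42.8/54.8/67.5/21.6, 76.2/85.9/125/97.6 and 149/82.4/123/74.4 in the controls. In HL it had 12.05/3.61/6.58/2.59, 0.507/1.46/0.485/0 and 0/1.35/0/0.301. It fell further after 1 h, with effects of -2.73, -5.91 and -6.26.

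Sevir.4G238100, a kelch-repeat F-box gene, had 7.43/20.6/44.4/19.3, 33.3/53.2/80.1/67.4 and 39.6/48.1/62.4/35.4 in the controls and 0/0.775/0/0, 2.03/1.70/1.46/1.73 and 0.599/1.08/0.497/0 in HL. Its effects were -4.32, -4.45 and -4.94. At 1 h, 3 counts in the HL columns stood against 301 in the controls, a ratio of 88.5 between their shares of reads (95% counting interval 30.0 to 432).

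Sevir.4G293000, a DnaJ-domain gene of the co-chaperone family, had 9.91/14.4/30.0/17.3, 29.6/39.9/55.5/53.2 and 29.4/35.045/55.6/29.9 in the controls. HL libraries held 0.268/0/0/0, 0/0/0/0.248 and 0.599/3.79/0.995/0.301. The gene was listed at 0 in most HL libraries of 1 h and 2 h, and B was highest at 4 h. Effects were -4.15, -5.42 and -3.99, and at 2 h a single count in HL stood against 652 in the controls, a ratio of 712 between their shares of reads with a 95% counting interval of 127 to 28200.0. These intervals were exact (Clopper-Pearson on the split of counts) and cover counting error only. They leave out the spread between replicates and the choice of genes on this contrast, so they are no test of the light effect.

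Sevir.8G026000, of the mitochondrial glycoprotein family, had 20.4/40.0/59.3/57.4, 34.6/47.7/66.8/52.6 and 24.9/26.6/35.5/24.7 in the controls. It had 2.68/1.55/1.52/2.91, 1.02/1.70/0.971/1.73 and 5.09/7.58/2.24/1.20 in HL, and effects of -3.84, -4.45 and -2.52. Sevir.6G132500, described as a wound-responsive gene related to a bifunctional nuclease, had 148/150.004/117/85.9, 118/141/288/191 and 367/229/335/266 in the controls. In HL it had 17.1/3.62/7.08/6.14, 7.61/8.52/9.22/13.4 and 48.8/129/46.8/66.2, with effects of -3.73, -4.12 and -2.03. Both genes stood higher at HL_4h than at HL_2h, and B was the highest HL_4h library in each.

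The mTERF proteins act on organelle gene expression, and 2 of their genes were members. Sevir.9G064400 had 159/209/230.1/212, 231/250.0/283/258 and 290.4/331/380.4/304 in the controls and 11.5/9.56/13.2/16.5, 48.7/36.7/29.4/47.1 and 66.2/78.5/71.9/80.3 in HL. Its HL libraries separated by time without overlap, and effects were -3.90, -2.63 and -2.12. Sevir.9G400200 had 355/339/445/647, 452/499.8/485/450.0 and 341/478/571/451 in the controls and 63.5/68.4/81.2/92.7, 188/155/140.0/167 and 180.0/135/174/151 in HL, with effects of -2.53, -1.53 and -1.52. In both the deepest point was at 1 h.

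Sevir.2G089200 is closest to NF-YC4, a subunit of the CCAAT-binding NF-Y factor. It had 129/192/202/191, 201/253/183/200.1 and 131/207/234/164 in the controls and 35.6/39.5/33.1/17.4, 25.9/23.4/17.0/27.7 and 50.6/30.6/36.3/31.3 in HL. The groups were far apart at each time, and effects were -2.47, -3.10 and -2.28.

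Of the undescribed genes, Sevir.3G063900 had 313/437/558/562, 418/348/513/494 and 611/568/635/584 in the controls and 86.8/89.4/47.3/74.6, 56.1/54.8/41.5/67.1 and 106/188/159/105 in HL. Sevir.2G285400 had 184/167/182/98.984, 169.8/226/218/199.8 and 134/155/174/136 in the controls and 63.5/20.7/40.5/24.2, 47.2/51.3/49.8/44.1 and 52.999/34.6/37.8/52.3 in HL. Neither overlapped. Their effects were -2.63, -2.99 and -2.10 and -2.06, -2.06 and -1.73. Over all 12 members without a description the light effect had medians of -2.18, -2.38 and -1.84, close to the -2.29, -2.66 and -2.03 of the 43 described ones. The others are Sevir.1G179900, Sevir.1G270600, Sevir.2G046900, Sevir.3G123900, Sevir.3G326500, Sevir.3G384650, Sevir.4G142000, Sevir.4G163200 and Sevir.7G228700.

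The remaining described members had light effects between -3.77 and -1.53. Transcription regulators were Sevir.5G246000, closest to RAD-like 6 (-1.73, -2.66 and -1.75), Sevir.3G114200, a myb-like gene (-2.11, -1.61 and -1.53), and Sevir.3G262500, of the FAF family of meristem regulators (-2.91, -3.33 and -3.20). Genes of protein turnover were the tubby-like Sevir.2G435000 (-1.57, -1.91 and -1.78), the RING-H2 gene Sevir.7G221200 (-1.60, -1.75 and -1.53) and the aspartyl protease genes Sevir.4G038200 (-2.26, -3.77 and -2.86) and Sevir.3G344501 (-2.33, -2.20 and -1.90). Each bracket gives the effects at 1, 2 and 4 h.

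Further members were Sevir.9G281600 of family DUF179 (-3.57, -3.19 and -2.34), the LEA gene Sevir.6G002800 (-2.12, -2.31 and -2.10), the MLO gene Sevir.1G200000 (-1.81, -2.58 and -2.75), the P-type cyclin gene Sevir.7G196900 (-1.78, -2.58 and -2.20) and the leucine-rich repeat gene Sevir.7G165900 (-2.84, -3.07 and -2.34). The last were the PPR gene Sevir.6G101557 (-2.04, -1.75 and -1.68), the hydrolase gene Sevir.5G279900 (-2.01, -1.83 and -1.53) and the phosphoribosyltransferase gene Sevir.9G583450 (-2.04, -2.40 and -1.63).

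Genes just inside and just outside the thresholds differed little. The weakest light effect at any time was -1.504 in Sevir.7G340529, -1.51 in Sevir.6G034400 and -1.52 in Sevir.4G068300. Just outside were Sevir.5G446500 at -1.49 and Sevir.8G010800 and Sevir.5G143300, both at -1.48. The largest heat effect in size was 0.98, 0.97 and 0.95 in Sevir.3G326500, Sevir.3G262500 and Sevir.3G384650, and just outside it was 1.02, 1.13 and 1.13 in Sevir.4G206800, Sevir.8G025350 and Sevir.4G117300. The lowest control mean was 5.09, 5.66 and 6.47 TPM in Sevir.1G200000, Sevir.7G228700 and Sevir.3G344501, and 4.45, 4.36 and 4.24 in Sevir.1G250500, Sevir.9G082000 and Sevir.7G218400.

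Heat left the set near its control level, as the rule requires. The median heat effect was 0.10, -0.08 and 0.09 at 1, 2 and 4 h, with members from -0.81 to 0.91, from -0.97 to 0.82 and from -0.65 to 0.98. HT and control libraries did not overlap in 7, 9 and 13 members, beside 12.3%, 15.5% and 17.3% of all tested genes. In edgeR 3, 3 and 4 members were called, beside 10.5%, 10.8% and 9.82% of all tested genes, and the rule had already removed genes with larger heat effects. At 1 h these were the PIF1-like gene, the ATG1-like kinase and the PPR gene Sevir.6G101557, all higher. At 2 h the CBL4-like gene was lower and Sevir.3G063900 and the DUF179 gene Sevir.9G281600 were higher. At 4 h Sevir.8G020400, Sevir.9G504800, Sevir.2G306500 and Sevir.8G026000 were higher. Heat effects were above 0 at every time in 16 members and below 0 at every time in 8. No share of all tested genes is given for these, so nothing is read from them. All HL libraries lay below all HT libraries of the same time in 54, 54 and 52 members (12.1%, 13.0% and 9.01% of all tested genes), a description too, since the rule used both groups.

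The members differed in how they moved in untreated leaves over the same hours. These comparisons with ctrl_0h were not used to choose them, although the later controls were, and a high later control favoured membership. In edgeR, 2 members were higher and 3 lower at ctrl_1h (3.92% and 2.07% of all tested genes), 8 higher and 0 lower at ctrl_2h (4.81% and 3.76%), and 17 higher and 8 lower at ctrl_4h (19.7% and 17.6%). In percent of the 55 these were 3.64 and 5.45, 14.5 and 0.0, and 30.9 and 14.5. At an unadjusted edgeR p under 0.05 there were 18, 12 and 28, of which 12, 2 and 10 were lower. DESeq2 and limma on log2(TPM + 1) called 8 and 9 at 2 h, 0 of them lower. No share of all tested genes is given for the unadjusted counts or for these alternatives, so nothing is read from them. The counts with a library left out, which follow, have no such share either. The adjusted edgeR counts at 1 h and 2 h depended on single libraries. Without ctrl_0h replicate A, C or D or ctrl_1h replicate D, 3 were called at 1 h, and without ctrl_1h replicate C 9 were. At 2 h there were 4 without ctrl_0h replicate C or D and 5 without ctrl_2h replicate B, C or D. Called in none of the 3 were 30 members, or 54.5%, beside 60.5% of all tested genes. The 8 that were higher at 2 h were all higher at 4 h, and the 3 that were lower at 1 h (Sevir.4G068300, Sevir.5G246000 and Sevir.9G482200) were all lower at 4 h. The 2 that were higher at 1 h, Sevir.4G142000 and the LEA gene Sevir.6G002800, were higher at all 3 times. The genes named below were chosen after their values were seen where they are not named above.

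The steepest climb was in the tubby-like gene Sevir.2G435000, with 4.22 to 7.08 TPM at ctrl_0h, 19.8 to 30.7 at ctrl_2h and 42.5 to 95.3 at ctrl_4h. Its log2 fold change in edgeR was 2.12 ± 0.31 at 2 h (SE, adjusted p = 1.2e-05) and 3.45 ± 0.31 at 4 h (adjusted p = 1.6e-11). Its HL_4h libraries were above its ctrl_0h libraries in mean, by 1.51 on the log2 scale. The undescribed Sevir.3G123900 rose by 2.91 ± 0.39 at 4 h (adjusted p = 2.2e-07) and the dormancy-family gene 5G112300 by 2.61 ± 0.35 (adjusted p = 2.4e-07). In 5G112300, TPM was 24.5/42.0/16.2/16.9 at ctrl_0h, below every ctrl_4h library. The PIF1-like gene rose by 0.60 ± 0.21 (adjusted p = 0.021), a call lost without either ctrl_0h replicate A or B or either ctrl_4h replicate A or C, and with the second index as a covariate.

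Fewer members fell than rose at 2 h and 4 h, while at 1 h 3 fell and 2 rose. The DUF179 gene 9G281600 had 71.6 to 124 TPM at ctrl_0h and 17.8 to 25.4 at ctrl_4h, a log2 change of -2.37 ± 0.25 (adjusted p = 1.5e-09). The cation efflux gene 9G482200 fell from 176 to 217 TPM at ctrl_0h to 57.2 to 142 at ctrl_1h and 73.1 to 96.4 at ctrl_4h, with changes of -0.84 ± 0.21 and -1.21 ± 0.21 (adjusted p = 0.012 and 1.4e-05). The ATG1-like kinase changed by -0.76 ± 0.25 at 4 h (adjusted p = 0.014), a call lost without ctrl_4h replicate B or D. At 4 h the SAUR-like gene changed by -0.88 ± 0.22 (adjusted p = 0.002) and the D14-related gene by -0.64 ± 0.17 (adjusted p = 0.0037). The MAX2-like gene was called lower at 1 h and 4 h (-1.42 ± 0.34 and -1.29 ± 0.32), but 1 library carried this: ctrl_0h replicate B had 38.7 TPM and the other 3 had 12.5 to 14.1. Without that library the changes were -0.86 and -0.76 and neither was called (adjusted p = 0.11 and 0.064 in edgeR).

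**Figure D4:**
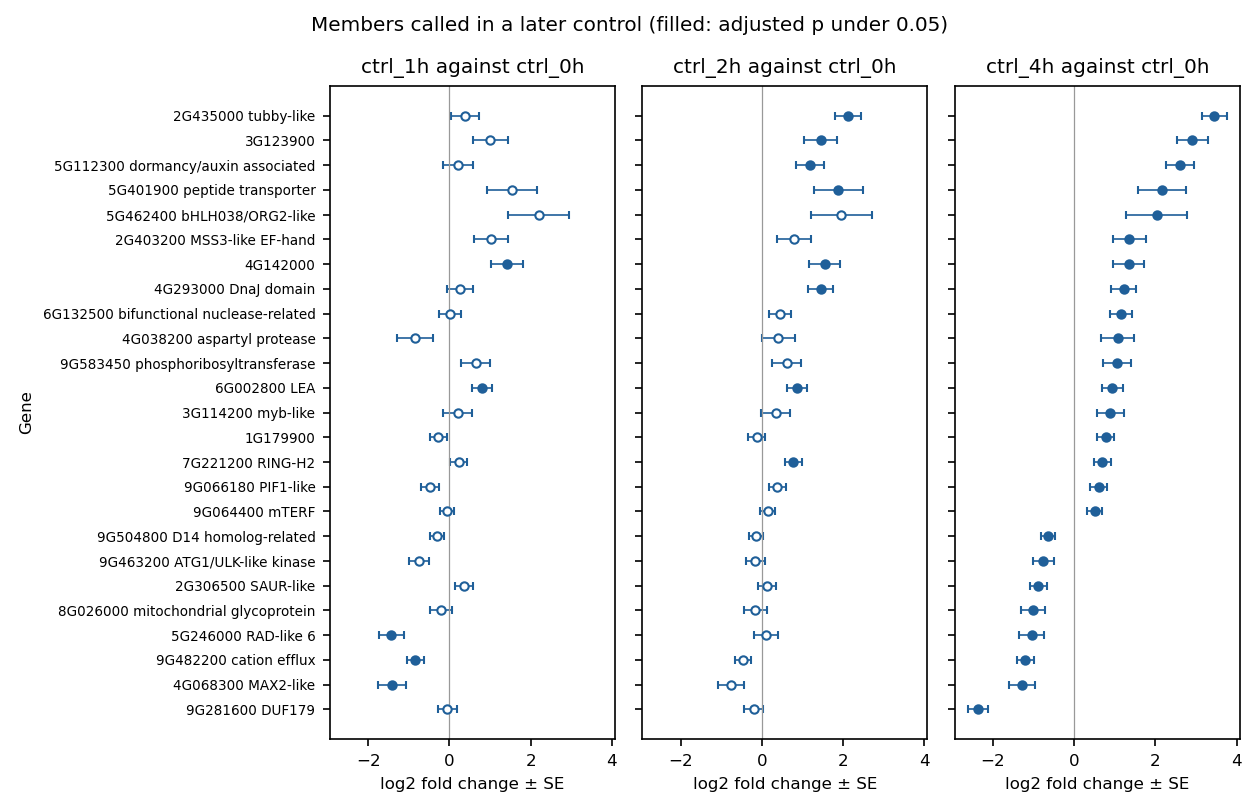
edgeR log2 fold change (± SE) of ctrl_1h, ctrl_2h and ctrl_4h against ctrl_0h for the 25 members called in at least 1 of the 3 comparisons, ordered by the change at 4 h; filled points have an adjusted p under 0.05. The 4 h changes run from -2.37 in 9G281600 to 3.45 in 2G435000, with 17 members higher and 8 lower.

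The second index of the sequencing adapters was uneven over the groups: all ctrl_2h and ctrl_4h libraries had AK2941, while 3 of the 4 HL_4h libraries had AK10751. With condition held fixed, 1 of 55 members differed between indices in edgeR, Sevir.5G246000, lower with AK10751 by -0.67 on the log2 scale (adjusted p = 0.028), beside 2.51% of all tested genes. In libraries with AK2941 alone, the members' median light effect was -2.28, -2.57 and -2.09, with 3, 3 and 1 HL libraries, so the value at 4 h rests on HL_4h replicate C alone.

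The tested genes outside the set whose levels followed it most closely over the 40 libraries were Sevir.8G025350 (Pearson r = 0.96), Sevir.1G184300, a gene of the mitochondrial ATPase inhibitor (0.96), Sevir.5G037800, a DHHC zinc-finger gene (0.96), Sevir.3G058700, closest to the replication factor SLD5 (0.94), and Sevir.6G143100 (0.94). The libraries share treatments and depth, so r is a description. The first 3 missed the rule on heat alone, with effects of 1.13 at HT_4h, 1.26 at HT_1h and 1.33 at HT_1h. Sevir.3G058700 had light effects of -1.28, -1.77 and -1.38, and Sevir.6G143100 had -2.13, -2.32 and -1.01.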

How the data were processed

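Leaf RNA of 40 libraries, 4 in each of 10 groups, was measured by 3′-end sequencing (QuantSeq, forward strand). The authors trimmed reads with Trim Galore 0.6.2 and estimated transcript abundance with Salmon 1.1.0, and they used DESeq2 for their own comparisons, which were not used here. The authors deposited TPM values, 1 file a library, in which every library has the same total and no gene length enters. They also deposited estimated counts, rounded to whole numbers, as 1 table. Of its 40 columns 39 were used, 1 was left out because its header names a heat sample and its values belong to HL_1h replicate D, and 4 were assigned to a group without a replicate letter. HL_1h therefore has 3 count columns and 4 TPM files.

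The members and all gene lists were chosen with earlier results of these data known. The 14293 genes that reached 10 counts in 4 or more columns were fitted with edgeR 4.0.16 (TMM, quasi-likelihood test, 1 model with a term for each group, R 4.3.3), with Benjamini-Hochberg adjustment over all tested genes within a contrast and an adjusted p under 0.05 as the call. The SE of a log2 fold change is its size divided by the square root of F. The edgeR test was tried on simulated counts with the same spread for every gene and known changes between ctrl_1h and ctrl_0h only. It therefore does not cover genes that spread more widely between replicates. Effects on TPM used a pseudocount of 1. Tables were built with Python 3.11.15, pandas 2.3.3, numpy 2.4.6 and matplotlib 3.10.9. Alternatives used DESeq2 1.42.0, limma 3.58.1 on log2(TPM + 1), other scalings, filters and thresholds, the second index as a covariate, and left-out libraries.

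Gene descriptions were text columns of the study's supplementary sheets, mostly Arabidopsis and rice matches. Members were named when they fell in a keyword list, among the 10 with the highest control TPM or among the 10 with the largest mean light effect. Total counts per column ran from 1422507 to 4901131 with a median of 3694586, and the median was lowest at ctrl_0h (2454168), so genes of few reads are least precise there.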

Additional observations from a re-analysis of the deposited data

Results flagged for a closer look

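Of 290 sets of 4 libraries (the 28 genes given by library and 1 mean level, in 10 groups), 22 held a library far from the other 3, or 7.59%, where chance alone gives about 1 in 20. The library HL_4h replicate B held 4 of them, all as the highest of its group: Sevir.5G462400 at 532 TPM (others 23.8 to 87.1), Sevir.9G504800 at 94.7 (45.8 to 52.0), Sevir.6G034400 at 94.5 (35.9 to 45.4) and Sevir.5G015700 at 14.6 (3.59 to 4.97).

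At ctrl_0h, replicate A was the lowest library for Sevir.2G089200 at 165 TPM, Sevir.5G462400 at 30.1 and Sevir.9G064400 at 195, and replicate B was the highest for Sevir.4G068300 at 38.7 and Sevir.9G504800 at 402. At ctrl_1h, replicate A was the lowest for Sevir.2G089200 at 129 TPM.

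In the remaining HL libraries, the high values were Sevir.9G066180 at 4.29 TPM in HL_1h replicate A, Sevir.4G238100 at 0.775 in HL_1h replicate B, Sevir.4G293000 at 0.268 in HL_1h replicate A and 0.248 in HL_2h replicate D, and Sevir.8G230500 at 0.507 in HL_2h replicate A. In the last 4 cases the other 3 libraries were listed at 0, so a read or a few set the value. Sevir.8G020400 was low at 5.81 TPM in HL_4h replicate A, where the other 3 had 9.26 to 9.59.

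Under heat, Sevir.1G129100 was low at 23.3 TPM in HT_1h replicate A and at 10.7 in HT_2h replicate C. Sevir.2G037400 was high at 16.9 in HT_2h replicate B and low at 11.2 in HT_4h replicate C. Sevir.5G112300 was low at 13.6 in HT_1h replicate D, and Sevir.9G262100 was high at 24.7 in HT_4h replicate C.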

How the results depend on the processing

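The number of members depended on the thresholds: 139 genes met a light effect of -1 or below, 21 met -2 or below, and 18 met a heat effect under 0.5 in size. Leaving out 1 library at a time gave 45 to 68, and the other settings gave 40 to 77. From the count table, the median light effects were -2.62, -3.06 and -2.50 at 1, 2 and 4 h, on the edgeR scale without a pseudocount of 1. With second index AK2941 alone, which leaves 1 HT_4h library (replicate A), the median heat effect at HT_4h was 0.22 instead of 0.09. At ctrl_1h, DESeq2 and limma each called 9 members (2 higher and 7 lower) instead of 5, again without a share of all tested genes. Leaving out 1 library gave 3 to 9 at ctrl_1h, 4 to 8 at ctrl_2h and 21 to 24 at ctrl_4h. With a replicate block, 4, 8 and 24 members were called at 1, 2 and 4 h, against 4, 7 and 23 in the same columns without the block. The counts with a library left out or with the block have no share of all tested genes either. Replicate letters showed no clear pairing among the controls. Deviations from the group mean in ctrl_0h libraries correlated between -0.13 and 0.17 with those of same-letter later controls. HL and HT libraries did not enter this check. Without HL_4h replicate B, a choice made after seeing the data, all HL_4h libraries lay below ctrl_4h in 54 members and below ctrl_0h in 47. With fewer libraries, groups overlap less easily, and no share of all tested genes is given at this setting. Of 38 calls of single genes in the later controls, 21 were kept under every alternative run and 32 under every alternative that left out no library. No direction reversed. The call of Sevir.6G002800 at 1 h was kept under 2 of 16. Causes were not tested. Low counts in HL limit fold changes of the deepest genes.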
